A study of Mus musculus with 6 samples.

Results

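The 10 genes followed here encode the hormones and granule proteins of pancreatic endocrine cells, and their transcripts were counted in RNA from sorted macrophages. They were Ins1, Ins2, Iapp, Gcg, Sst, Ppy, Pyy, Ttr, Chga and Chgb, found in the count table by gene symbol. They were chosen with earlier results of these data known. These are 10 of the 50600 genes in the count table, and each symbol occurred once. Macrophages had been sorted as live cells (negative for the dye DAPI) positive for CD45, F4/80 and CD64, from the islets and from the epididymal fat (EpiWAT, the visceral depot beside the testis) of chow-fed C57BL/6J male mice aged 12 weeks. Each tissue gave 3 libraries, which carry the numbers 2, 4 and 6. The design text describes the tissues as autologous, so a shared number was read as a shared animal, and no library had received a treatment. The sources used here do not say whether an islet library pools several animals.

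Islet endocrine cells make peptide hormones as larger precursors, which are cut and stored in dense granules until they are released. Beta cells make insulin and amylin, alpha cells glucagon, delta cells somatostatin and PP cells pancreatic polypeptide, and granins help to pack the granules of all of them. Macrophages are no endocrine cells, but those of the islet lie beside beta cells and are known to take up their granules. The fat libraries therefore served as the background, measured in the same way in macrophages from a tissue without endocrine islet cells.

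Mice carry a pair of insulin genes. Ins1 (ENSMUSG00000035804.4) lies on GRCm38 chromosome 19, from 52264297 to 52265476 on the plus strand, and its main transcript has 2 exons. Ins2 (ENSMUSG00000000215.11) lies on chromosome 7, from 142678656 to 142743381 on the minus strand, and its main transcript has 3 exons. Their coding sequences are shown because, within them, a read can be given to 1 of the genes only by the few bases that differ. They make up 324 of the 1062 annotated exon bases of Ins1 and 330 of the 1312 of Ins2. Both run 5′ to 3′ and show the first 300 coding bases from GENCODE M21 transcripts, with bases that differ or have no partner in an alignment in capitals; the bases after them hold no difference.
Ins1: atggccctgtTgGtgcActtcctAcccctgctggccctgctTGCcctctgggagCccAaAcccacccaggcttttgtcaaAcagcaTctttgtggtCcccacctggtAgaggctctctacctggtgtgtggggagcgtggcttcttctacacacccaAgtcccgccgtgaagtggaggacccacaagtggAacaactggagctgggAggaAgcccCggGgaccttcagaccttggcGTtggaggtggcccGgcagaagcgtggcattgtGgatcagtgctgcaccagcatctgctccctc
Ins2: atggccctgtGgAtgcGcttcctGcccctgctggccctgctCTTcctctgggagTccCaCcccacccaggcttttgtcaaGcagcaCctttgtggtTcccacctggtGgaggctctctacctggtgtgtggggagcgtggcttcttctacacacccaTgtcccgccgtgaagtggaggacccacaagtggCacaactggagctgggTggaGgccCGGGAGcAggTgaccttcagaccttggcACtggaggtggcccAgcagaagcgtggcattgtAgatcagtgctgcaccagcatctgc
Over the whole coding sequence without its stop codon, 300 of 324 aligned bases (92.6%) were identical, and Ins2 carried 6 further bases. The longest stretch that any annotated Ins1 and Ins2 transcripts share was 56 bases. A read that lies wholly inside such a stretch cannot be given to 1 of the genes, and the sources used here give neither the read length nor the rule for such reads. Exons of none of the 10 genes overlapped those of another gene in this annotation.

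Total counts ranged from 4089980 to 6923475 in the islet libraries and from 7450890 to 9235591 in the fat libraries. The macrophage genes Ptprc (CD45), Adgre1 (F4/80) and Fcgr1 (CD64) were present in every library, and the 10 macrophage markers listed took 0.543% to 0.695% of islet and 0.779% to 0.941% of fat counts. Islet libraries resembled each other less, with Pearson correlations of 0.841 to 0.904 in log2 CPM, than fat libraries did, with 0.960 to 0.966; these run across genes, and genes are no replicates. CPM are counts per 1000000 of library sizes scaled by the TMM method. Islet library 6 stood apart in its heat shock RNA, with the chaperone gene Hspa1b at 1401 CPM against 32506 in library 2 and 49960 in library 4.

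Hormone and granin transcripts made up a visible part of every islet macrophage library. They took 46737 counts in islet library 2, 21499 in library 4 and 25916 in library 6, which are 0.783%, 0.526% and 0.374% of the total. The exact 95% binomial intervals were 0.776% to 0.790% for library 2, 0.519% to 0.533% for library 4 and 0.370% to 0.379% for library 6. In the fat libraries they took 18, 46 and 0 counts in libraries 2, 4 and 6, or 1.95e-04%, 6.17e-04% and 0%, and a count of 0 there allows a share of up to 3.92e-05% (a limit of 3 counts of the total). Intervals and limits cover counting error only, because reads that carry no molecular identifier may copy 1 molecule. Every islet library thus lay far above every fat library, and the 3 islet libraries differed from each other by more than counting error. The mean share was 0.561% ± 0.206 in islet and 2.71e-04% ± 3.16e-04 in fat macrophages (SD, n = 3 each), with an exact two-sided permutation p = 0.1, the smallest that 3 against 3 libraries can give. In bulk RNA, fewer cells that carry a transcript and less of it per cell cannot be told apart, nor can RNA inside macrophages, RNA of endocrine cells in the sort and free RNA.

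**Figure D1:**
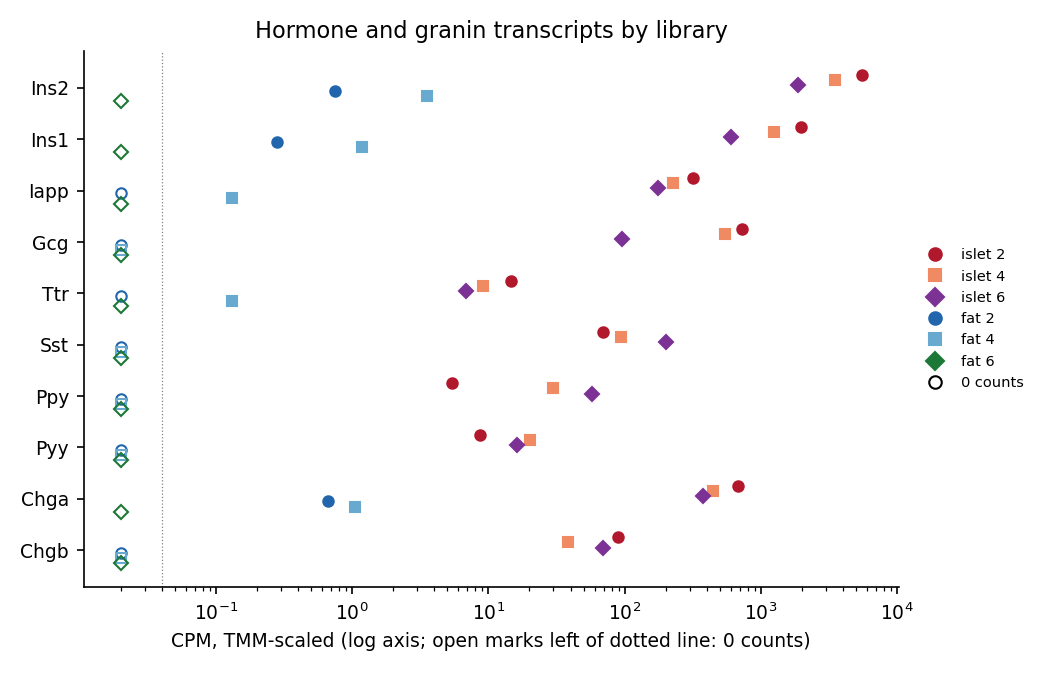
Level of each of the 10 transcripts (CPM, log axis) in the 3 islet and 3 fat libraries, 1 mark per library, with open marks left of the dotted line for libraries with 0 counts. Every islet mark lies right of every fat mark, fat library 6 has 0 counts of all 10, and Gcg and Ppy spread most among the islet libraries.

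Of the 10 genes, all passed the filter on low counts, through their islet counts, and all 10 were higher in islet macrophages by edgeR's quasi-likelihood test with Benjamini-Hochberg adjustment over 12152 genes. Of all genes tested, 8.97% were called higher. The adjusted p values of the 10 ranged from 4.52e-05 for Iapp to 0.00387 for Ppy. For all 10, every islet library lay above every fat library, which held for 18.2% of the genes tested. The median fitted log2 difference of the 10 was 11.36, or 9.11 with the 5 genes without fat counts set at their lower bound, against 0.01 for the genes tested. By the other methods run, DESeq2 called 11.8% of genes higher, limma voom 9.26% and edgeR with the animal number as a block 7.27%, and each called all 10.

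**Figure D2:**
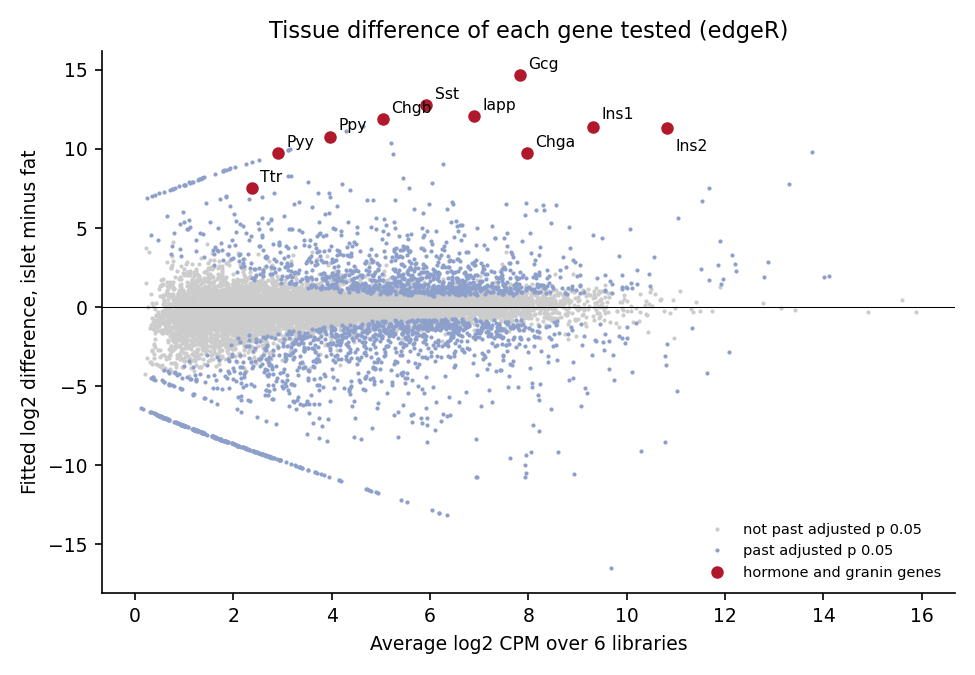
Fitted log2 difference (islet minus fat) against average log2 CPM for the 12152 genes tested by edgeR, with the 10 hormone and granin genes labelled. The 10 lie between 7.51 (Ttr) and 14.65 (Gcg), where the values of genes without fat counts depend on the fit and are no measured fold.

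The insulin genes were the most abundant of the 10. Ins2 had 27399, 12240 and 13987 counts in islet libraries 2, 4 and 6, against 8, 27 and 0 in the fat libraries of the same numbers. On the CPM scale these were 5502, 3496 and 1877 in islet and 0.754, 3.57 and 0 in fat. Ins2 was the gene with the 23rd highest count in islet library 2 and the 28th in libraries 4 and 6, so it stood among the leading transcripts of a macrophage library. Ins1 had 9845, 4344 and 4509 counts in the islet libraries and 3, 9 and 0 in the fat libraries. Both genes were highest in islet library 2 and lowest in library 6, with no overlap between tissues. The mean of Ins2 was 3625 ± 1816 CPM in islet against 1.44 ± 1.88 CPM in fat (SD, n = 3), a fitted log2 difference of 11.33 ± 1.21 (SE, edgeR adjusted p = 4.67e-04). For Ins1 the difference was 11.38 ± 0.97 (edgeR adjusted p = 1.83e-04), at 1274 ± 687 against 0.491 ± 0.622 CPM.

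Iapp (ENSMUSG00000041681.2, chromosome 6, 142298423 to 142303961) encodes amylin, which beta cells release together with insulin. It had 1584, 786 and 1299 counts in islet libraries 2, 4 and 6, or 318, 224 and 174 CPM, and 0, 1 and 0 counts in the fat libraries. The islet libraries kept the order of the insulin genes, but lay closer together. The pooled islet to fat ratio was 6152, and its 95% counting interval ran from 1103 to 243054, since fat held a single read (edgeR adjusted p = 4.52e-05).

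Gcg (ENSMUSG00000000394.15, chromosome 2, 62474530 to 62483650) encodes the precursor of glucagon, the alpha cell hormone that raises blood glucose. It had 3590, 1902 and 714 counts in islet libraries 2, 4 and 6, or 721, 543 and 95.8 CPM, and no count in any fat library. Library 6 was far below the other islet libraries, and 7.52-fold below library 2. Against a floor of 3 counts per fat library, Gcg was at least 1319-fold higher in islet macrophages (edgeR adjusted p = 9.61e-04). Ttr (ENSMUSG00000061808.3, chromosome 18) encodes transthyretin, a carrier of thyroid hormone and retinol that alpha cells also make. It had 73, 32 and 51 counts in the islet libraries and 0, 1 and 0 in the fat libraries, the lowest level of the 10 per length. In CPM these were 14.7, 9.14 and 6.85 in islet, so its islet libraries were 2.14-fold apart, less than those of Gcg. The pooled islet to fat ratio of Ttr was 262 (95% counting interval 46.3 to 10397, edgeR adjusted p = 0.00128).

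Sst (ENSMUSG00000004366.3, chromosome 16, 23889573 to 23890958) encodes somatostatin, the delta cell peptide that restrains the release of insulin and glucagon. It had 347, 329 and 1493 counts in islet libraries 2, 4 and 6, or 69.7, 94.0 and 200 CPM, and none in fat. Here library 6 was the highest and library 2 the lowest, the reverse of the insulin genes and Gcg. The difference was at least 353-fold against the floor (edgeR adjusted p = 2.74e-04).

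Ppy (ENSMUSG00000017316.13, chromosome 11, 102099930 to 102101319) encodes pancreatic polypeptide, and Pyy (ENSMUSG00000017311.15, chromosome 11, 102106676 to 102107832), its neighbour in the genome, the related peptide YY. Ppy had 27, 104 and 428 counts in islet libraries 2, 4 and 6, or 5.42, 29.7 and 57.4 CPM, and none in fat. Its islet libraries were 10.6-fold apart at the extremes, with library 6 highest as for Sst. Pyy had 43, 71 and 121 counts, or 8.63, 20.3 and 16.2 CPM, and none in fat. Library 2 was the lowest for both genes, and in CPM library 4 the highest for Pyy. As a share of unscaled counts, Pyy was about equal in libraries 4 and 6 (0.00174% and 0.00175%). Against the floor, Ppy was at least 89.8-fold and Pyy at least 43.8-fold higher in islet macrophages (edgeR adjusted p = 0.00387 and 0.00108).

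Chga (ENSMUSG00000021194.5, chromosome 12, 102554969 to 102565028) and Chgb (ENSMUSG00000027350.8, chromosome 2, 132781278 to 132795079) encode chromogranins A and B, granule proteins of endocrine and nerve cells. Chga had 3381, 1557 and 2799 counts in islet libraries 2, 4 and 6, or 679, 445 and 376 CPM, and 7, 8 and 0 counts in fat libraries 2, 4 and 6. In CPM it differed least among the islet libraries of the 10 genes, by 1.81-fold. Its fitted log2 difference was 9.75 ± 0.74 (SE, edgeR adjusted p = 1.09e-04), with means of 499.8 ± 159 against 0.572 ± 0.534 CPM (SD, n = 3). Chgb had 448, 134 and 515 counts in the islet libraries, or 90.0, 38.3 and 69.1 CPM, and none in fat. In CPM library 4 was the lowest for Chgb, which set it apart from the other 9 genes. As a share of unscaled counts, Chga too was lowest in library 4 (0.0381%, against 0.0404% in library 6). Against the floor, Chgb was at least 191-fold higher in islet (edgeR adjusted p = 2.21e-04).

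Ratios among the transcripts do not depend on library size, and across libraries not on gene length. The insulin genes held a nearly fixed proportion to each other. Ins1 to Ins2 was 0.359 (exact 95% interval 0.351 to 0.368), 0.355 (0.343 to 0.367) and 0.322 (0.312 to 0.333) in islet libraries 2, 4 and 6, a mean of 0.345 ± 0.0202 (SD, n = 3). Libraries 2 and 4 overlapped in their intervals and library 6 lay slightly below them. Iapp to Ins2 was 0.0578, 0.0642 and 0.0929, and Chga to Ins2 0.123, 0.127 and 0.200. In each, libraries 2 and 4 were close and library 6 was higher. Ttr to Ins2 was 0.00266, 0.00261 and 0.00365, with overlapping intervals between all 3 libraries. Chgb to Ins2 was 0.0164, 0.0109 and 0.0368, a 3.36-fold span, with no overlap between intervals.

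The hormones of the other islet cells did not keep a fixed proportion to Ins2, with spans of 3.04-fold for Gcg to 31.1-fold for Ppy. Gcg to Ins2 was 0.131 (exact 95% interval 0.126 to 0.136), 0.155 (0.148 to 0.163) and 0.0510 (0.0473 to 0.0550) in islet libraries 2, 4 and 6. Sst to Ins2 was 0.0127 (0.0114 to 0.0141), 0.0269 (0.0240 to 0.0300) and 0.107 (0.101 to 0.113). Library 6 thus held the least Gcg and the most Sst per Ins2 read. Ppy to Ins2 was 9.85e-04, 0.00850 and 0.0306, and Pyy to Ins2 0.00157, 0.00580 and 0.00865. For both, library 2 was the lowest and library 6 the highest, though the intervals of libraries 4 and 6 overlapped for Pyy. Sst to Gcg was 0.0967 (0.0863 to 0.108), 0.173 (0.153 to 0.195) and 2.09 (1.91 to 2.29), so somatostatin reads outnumbered glucagon reads in library 6 alone. Without islet replicate 6 the mean of that ratio was 0.135, against 0.787 with all 3 libraries. Ppy to Pyy was 0.628, 1.46 and 3.54, with no overlap between the intervals of any 2 libraries.

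**Figure D3:**
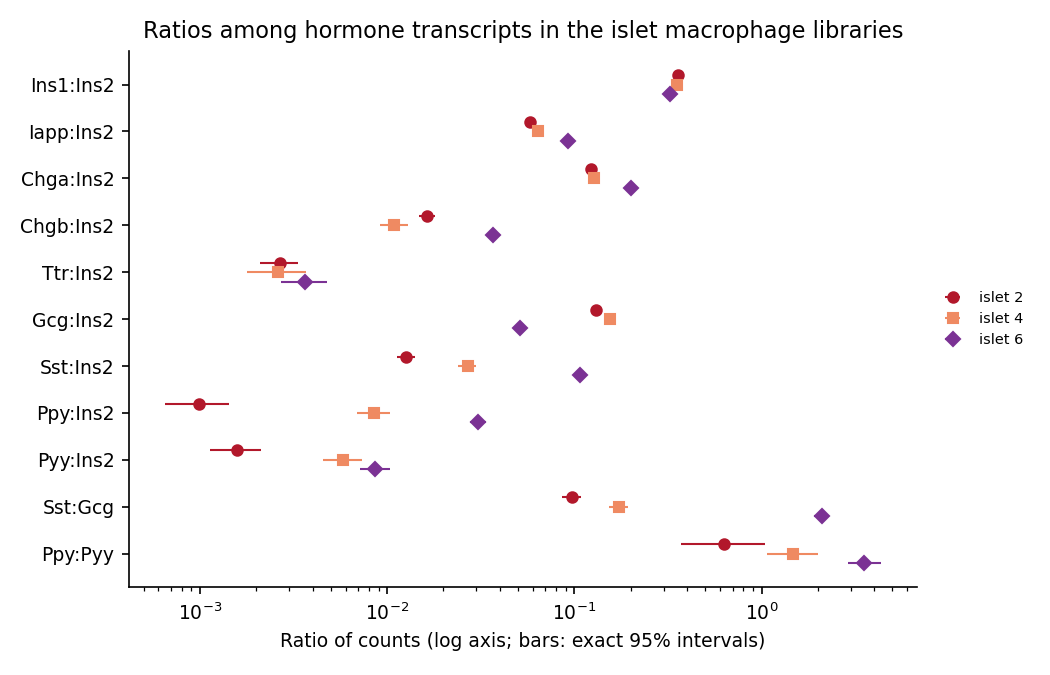
Ratios of counts (log axis) between pairs of transcripts in islet libraries 2, 4 and 6, with exact 95% intervals that cover counting error only. Ins1 to Ins2 sits at 0.322 to 0.359 in all 3 libraries, while Sst to Gcg runs from 0.0967 to 2.09.

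As a share of the reads of Gcg, Sst, Ppy and Pyy together, Gcg made up 89.6%, 79.1% and 25.9% in islet libraries 2, 4 and 6. Sst made up 8.66%, 13.7% and 54.2%, and Ppy 0.674%, 4.32% and 15.5%. The 4 hormones together were 8.57%, 11.2% and 10.6% of the reads of the 10 genes, a share that moved less than their makeup. This is a share of the 10 genes alone, which themselves took 0.783%, 0.526% and 0.374% of counts in islet libraries 2, 4 and 6. Among 5911 genes with at least 300 islet counts, the median ratio of the highest to the lowest islet library in CPM was 1.80. The ratios of Ppy (10.6) and Gcg (7.52) exceeded those of 98.3% and 97.1% of these genes. Ins1 (3.27), Ins2 (2.93) and Sst (2.88) exceeded 86.2%, 82.6% and 81.9%, and Iapp (1.83) and Chga (1.81) about as many as they fell short of, at 51.6% and 50.5%. Library 6 was also the islet library with little Hspa1b, and the part of that difference in the hormone ratios was not tested.

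Levels were compared between genes per kilobase of annotated exon. Mean islet levels were 2763 ± 1384 CPM per kb for Ins2, 1199.9 ± 646 for Ins1, 303 ± 216 for Gcg, 245 ± 74.9 for Iapp, 181 ± 57.7 for Chga and 168 ± 96.4 for Sst (SD, n = 3). Below them came Ppy with 61.7 ± 52.1, Chgb with 24.0 ± 9.49, Pyy with 23.9 ± 9.37 and Ttr with 8.61 ± 3.39 CPM per kb. Neighbours in this order kept it in 3 of 3 islet libraries for Ins2 over Ins1, Ins1 over Gcg, Iapp over Chga, Sst over Ppy and Pyy over Ttr. Gcg over Iapp, Chga over Sst and Ppy over Chgb held in 2 of 3 and Chgb over Pyy in 1 of 3, so the order of these neighbours changed between libraries. With the coding length in place of the exon length, a choice made after the data were seen, Iapp (857 CPM per kb) came above Gcg (840) and Pyy (51.2) above Chgb (32.4).

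The few reads in fat macrophages came from 5 of the 10 genes. Fat library 2 held 8 reads of Ins2, 7 of Chga and 3 of Ins1. Fat library 4 held 27 reads of Ins2, 9 of Ins1, 8 of Chga and 1 each of Iapp and Ttr. Ins1 to Ins2 over the fat libraries was 0.343 (exact 95% interval 0.162 to 0.676), which includes the ratio of every islet library. Chga made up 38.9% (exact 95% interval 17.3 to 64.3) of the 18 reads in fat library 2 and 17.4% (7.82 to 31.4) of the 46 in fat library 4, against 7.23%, 7.24% and 10.8% of the reads of the 10 genes in islet libraries 2, 4 and 6. The interval of fat library 2 lay above all 3 islet shares, and that of fat library 4 included the share of islet library 6. Gcg made up 0 of the 64 fat reads pooled (upper limit of the exact interval 5.60%), against 2.76% to 8.85% in the islet libraries. In fat library 4 alone the upper limit was 7.71%. Read against the islet library of the same number, the share of the 10 genes in fat was 0.0249% of that in islet for number 2, 0.117% for number 4 and 0% for number 6 (up to 0.0105% at the same limit of 3 counts). Fat library 4 was the highest, although the islet library with the highest share was number 2.

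Other genes of the endocrine cell were followed in lists of gene symbols, which were also chosen with earlier results of these data known. A beta cell list of 20 granule and identity genes took 0.0709%, 0.0453% and 0.0408% of counts in islet libraries 2, 4 and 6 and 0.00271% to 0.00282% in fat. Of its 20 genes, 10 had no count in any fat library, so that these could pass the filter only through the islet libraries. With that limit, 18 passed and were called higher in islet macrophages by edgeR (8.97% of genes tested were). Without a filter (a setting added once the values were known) 18 of the 20 were called higher, where 6.52% of 22793 genes were called higher and 8.24% lower. Scg2, a granin of the secretory granule, had 1102, 471 and 763 counts in the islet libraries and 1, 6 and 0 in the fat libraries. Pcsk2, the convertase that cuts prohormones, had 581, 258 and 284 counts in islet and 0, 2 and 0 in fat. The beta cell transcription factor genes Pdx1 (40, 13 and 23 counts) and Nkx6-1 (59, 12 and 43), named after their values were seen, had none in fat. These counts were far below those of the insulin genes. Ero1lb, an oxidase of protein folding in the list, was also present in fat (164 to 186 counts), and it held most of the fat reads of the list. Ins2 reads were 6.47 (exact 95% interval 6.27 to 6.69), 6.61 (6.30 to 6.95) and 4.95 (4.76 to 5.16) times those of the whole list in islet libraries 2, 4 and 6. In that ratio too, libraries 2 and 4 overlapped and library 6 stood apart.

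Identity genes of the other endocrine cells gave few calls. In a list of 12 such genes of alpha, delta, PP and epsilon cells, 5 passed the filter. Gc, the vitamin D-binding protein gene of alpha cells, was higher in islet (31, 12 and 23 counts against none in fat), Etv1 was lower, and 3 did not pass the test. In islet libraries 2, 4 and 6 the alpha cell factor genes Irx1 (0, 14 and 0 counts) and Irx2 (0, 1 and 13), named after their values were seen, did not follow Gcg. At these counts their order between libraries has little weight. Hhex, a factor of delta cells, had an edgeR adjusted p = 0.221, with means of 19.1 ± 1.96 against 12.7 ± 1.42 CPM (SD, n = 3). Of 10 pan-endocrine genes, 3 passed the filter, 2 of them higher in islet and 1 not past the test. The number higher was 5 without islet replicate 4 and 7 without a filter, where 6.52% of all genes were called higher. The 2 called were Pax6 (35, 19 and 23 islet counts) and Scgn (46, 16 and 11), a transcription factor and a calcium sensor, with none in fat. Gc, Pax6 and Scgn, without fat counts, could pass the filter only through the islet libraries.

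Acinar markers of the exocrine pancreas did not follow the summed hormone share in their order among the islet libraries. The 18 acinar genes, which encode digestive enzymes and their partners, took 36, 466 and 153 counts in islet libraries 2, 4 and 6, or 6.03e-04%, 0.0114% and 0.00221%, and 23 to 28 counts in the fat libraries. Library 4 was the highest, while the hormone share, mostly insulin reads, was highest in library 2. Single hormones differed, with Sst, Ppy and Pyy lowest in library 2, like the acinar genes, and the insulin genes, Iapp and Gcg highest there. Pnlip, pancreatic lipase, had 0, 100 and 29 counts in the islet libraries, and Ctrb1, chymotrypsinogen, had 20, 55 and 29, both with none in fat. Of the 2 acinar genes that passed the filter, Ctrb1 was higher in islet and Cela1 did not pass the test. Ctrb1, without fat counts, could pass the filter only through the islet libraries. The number of acinar genes higher was 4 without islet replicate 2 and 9 without a filter, where 6.52% of all genes were called higher. Amy2b had no count in any library. The part of acinar RNA in the hormone counts was not tested.

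Of 9 duct genes, Krt18 and Spp1 were higher in islet, 1 did not pass the test and 6 did not pass the filter, with Krt19, Cftr and Mmp7 at 0 in every islet library. Their summed share was 0.00284% to 0.0109% in islet and 5.64e-04% to 8.37e-04% in fat. Krt18, a keratin that endocrine cells also make, had levels of 63.9, 23.1 and 5.23 CPM in islet libraries 2, 4 and 6, highest in library 2 and lowest in library 6 as for the insulin genes. Krt8, another keratin of the list, named after its values were seen, did not keep that order. It had 45, 1 and 239 counts in islet libraries 2, 4 and 6 and did not pass the filter. Spp1, osteopontin, which macrophages also make, had 153, 15 and 453 counts. The count of 2 higher duct genes was 1 without islet library 2, fat library 2 or fat library 4. It was 4 without a filter, where 6.52% of all genes were called higher.

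The remaining lists, of stromal, adipocyte, endothelial, lymphocyte and macrophage genes, each had a lower summed share in every islet library than in any fat library, while the calls of their genes differed. In the stromal list 6 of 8 genes were lower in islet (0.0103% to 0.0469% of fat and 1.51e-04% to 4.91e-04% of islet counts), where 10.5% of all genes tested were called lower. Col3a1 had 3, 9 and 0 counts in islet libraries 2, 4 and 6, against 1842, 906 and 338 in the fat libraries, and Pdgfrb did not pass (edgeR adjusted p = 0.0859). In the adipocyte list 6 of 9 genes were lower in islet, and 8 of 9 had no islet count, among them Car3 with 597, 594 and 169 counts in the fat libraries. Lipe, which macrophages also express, was the exception (edgeR adjusted p = 0.362). The 8 adipocyte genes without an islet count could pass the filter only through the fat libraries and could only come out lower. The same held for the 5 stromal genes without an islet count (Col1a1, Dcn, Lum, Pdgfra and Dpt). Endothelial genes took 0.00122% to 0.00319% of islet and 0.00370% to 0.0208% of fat counts, with 1 of 8 lower and 5 not past the test, Pecam1 and Kdr among the latter. With the animal number as a block, 0 endothelial genes were called lower in edgeR. The count was also 0 without islet library 2, fat library 2 or fat library 4, and 3 without islet library 6 or fat library 6. It was 7 without a filter, where 8.24% of all genes were called lower. Lymphocyte genes took 7.58e-04% to 0.00132% of islet and 0.00147% to 0.00207% of fat counts. Of these, Cd4 did not pass the test, the other 7 including Ms4a1 did not pass the filter, and Cd3e, Cd3g, Cd79a and Ncr1 were at 0 in every islet library. Cd4 alone gave 79, 23 and 86 of the list's 79, 31 and 88 counts in islet libraries 2, 4 and 6. In fat libraries 2, 4 and 6 it gave 111, 135 and 92 of 136, 152 and 158. Without a filter 1 lymphocyte gene was lower in islet. Of the 10 macrophage genes, 2 were higher in islet (Tyrobp and Fcer1g), 2 lower (Lyz2 and Mertk), and 6, Csf1r among them, did not pass. Their median fitted log2 difference was 0.516, so their lower summed share in islet did not hold gene by gene. Lyz2 alone gave 32615, 32436 and 31363 of the list's 71915, 62847 and 71971 counts in fat libraries 2, 4 and 6. In islet libraries 2, 4 and 6 it gave 8017, 6114 and 7810 of 33298, 28425 and 37618. The count of 2 higher macrophage genes was 0 when any 1 library other than islet library 6 was left out, 5 without islet library 6 and 4 in DESeq2. The count of 2 lower was 1 without islet library 2 or any 1 of the fat libraries. The hormone share of the islet libraries (0.374% to 0.783%) was thus of the same order as the summed share of these 10 macrophage genes, without any correction for gene length.

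**Figure D4:**
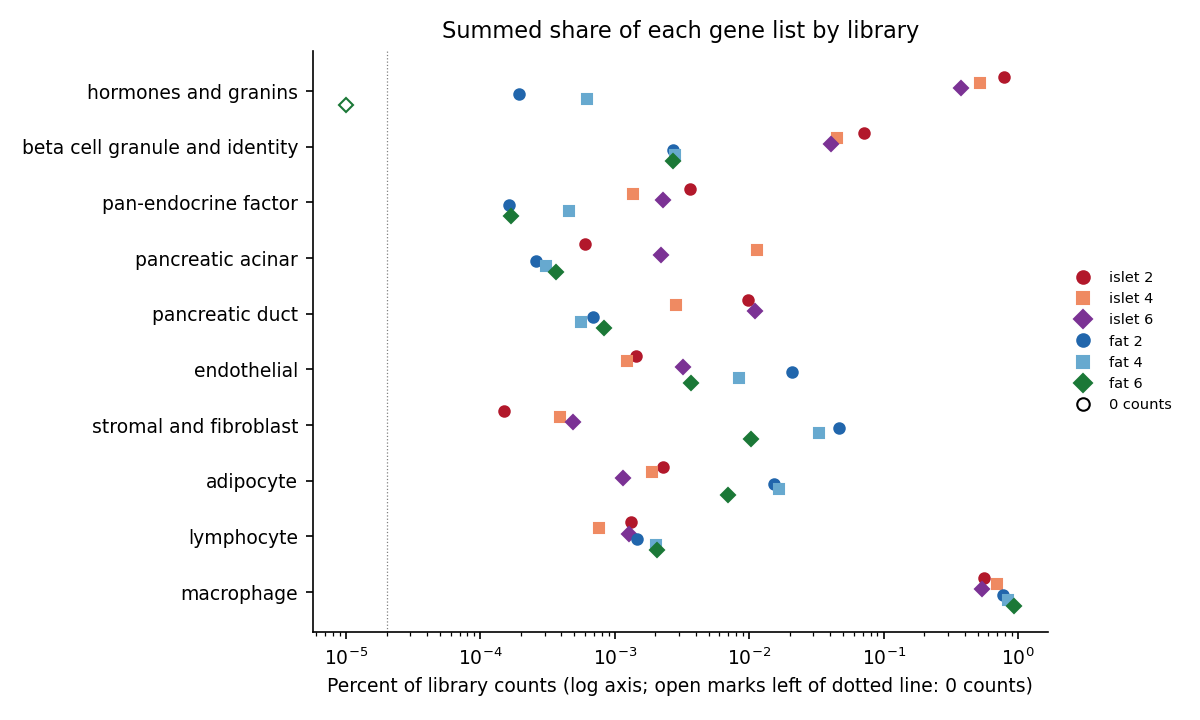
Summed share of library counts (percent, log axis) of the 10 hormone and granin genes and of 9 marker lists, 1 mark per library, with an open mark for 0 counts. Hormones and beta cell genes are highest in islet library 2 and acinar genes in islet library 4, and stromal and adipocyte genes are higher in fat.

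The genes outside the 10 whose profile over the 6 libraries lay closest to that of Ins2 were taken from 8568 genes with at least 100 islet counts. Likeness was the root-mean-square difference of log2 (CPM + 0.5) values centred on each gene's mean. The closest were Hspa1b (1.83), Scg2 (1.87), Pcsk2 (2.27), H2-M2 of the MHC class I family (2.45), and Capn3, a protease (2.49). Among the 10, Ins1 (0.58), Chga (1.24), Gcg (1.37) and Iapp (1.48) lay closer to Ins2 than any of these, and Ttr (3.59), Pyy (3.38) and Ppy (3.34) lay farther. The measure over 6 libraries is set mainly by the size of the tissue difference, and in islet libraries 2, 4 and 6 Hspa1b (32506, 49960 and 1401 CPM) and H2-M2 (68.5, 96.5 and 97.7 CPM) did not keep the order of Ins2.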

How the data were processed

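From each sorted sample, 10 ng of column-purified total RNA entered strand-specific, low-input total RNA libraries, per the labels' protocols. The authors deposited raw read counts per gene, which they had not normalized. The submitters' processing notes name STAR, featureCounts, Subread 1.6.4 and GRCm38, and the sources used here give neither the annotation nor the strand setting nor the rule for reads that match several genes.

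Identifiers were matched without version to GENCODE M21 (50376 of 50600, 99.56%) for coordinates, exon lengths and transcript sequences, and the insulin coding sequences were aligned with Biopython 1.88. The tissue comparison used edgeR 4.0.16 in R 4.3.3, with filterByExpr by tissue, TMM scaling, a robust quasi-likelihood fit on tissue alone, and Benjamini-Hochberg adjusted p under 0.05. Standard errors were derived from the F statistic. Genes without fat counts are given as bounds against 3 counts per library, and genes with 1 fat count as pooled ratios. Intervals are exact (Clopper-Pearson) at 95%, and shares were compared by an exact permutation test in scipy 1.17.1. The fit was tested on simulated data.

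The 10 genes, the marker lists and the tests were chosen with earlier results of these data known. Named genes were the 10, the 2 of each marker list with the highest mean CPM (in islet, or in fat for the adipocyte list) and the 5 nearest to the Ins2 profile; others were named after their values were seen, as stated or as called or 0-count members of a list. Some marker genes, and the summed share of the alpha, delta, PP and epsilon cell list, are not reported here. Same-numbered samples were taken as the same animal from the design text, and the correlations of their deviations from the tissue means were 0.0460, 0.0630 and -0.00759. Those of pairs with different numbers ran from -0.142 to 0.103, so same-numbered samples were no more alike than others. The p values of the fits set the tissue difference against the spread between libraries of a tissue. Whether that is a spread between single animals is unknown, since an islet library may pool several. Alternatives were DESeq2 1.42.0, limma voom (limma 3.58.1), scaling by RLE or upper quartiles, no filter, a filter of at least 1 CPM in all libraries of a tissue, scaling without endocrine and acinar genes, the animal number as a block, other totals and lengths, and each library left out.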

Additional observations from a re-analysis of the deposited data

How the results depend on the processing

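All 10 genes were called higher in islet macrophages under each of the 14 alternatives run for them: RLE and upper-quartile factors, both other filters, scaling without endocrine and acinar genes, DESeq2, limma voom, the replicate block and each of the 6 libraries left out. The largest adjusted p was 0.0189, for Ppy in limma voom. With the animal number as a block 10 of 10 were called, and 17 of the beta cell list; it left 5 of the adipocyte list and 0 of the endothelial list lower in islet, against 6 and 1 without it, and left the counts of the other lists as they were. The mean difference in hormone share within a number was 0.561 percentage points (exact permutation p = 0.25, the smallest that 3 pairs allow). The mean islet share stayed between 0.450% and 0.654% when 1 library was left out, and was 0.613% without mitochondrial and ribosomal RNA genes, 0.674% of protein-coding counts and 0.633% of TMM-scaled library sizes. With 1 library left out, the number of pan-endocrine genes higher in islet ran from 2 to 5 (5 without islet replicate 4), of acinar genes from 1 to 4 (4 without islet replicate 2), and of beta cell genes from 16 to 19. Duct genes higher in islet ran from 1 to 3 with 1 library left out and were 0 in limma voom, and endothelial genes lower ran from 0 to 3 and were 3 in DESeq2. The share of all genes called with 1 library left out is not given here, so these list counts cannot be set against it. Without a filter, an alternative for the lists chosen after seeing the data, 7 pan-endocrine, 9 acinar and 4 duct genes were higher in islet. In that setting 7 endothelial genes and 1 lymphocyte gene were lower, where 6.52% of 22793 genes were called higher and 8.24% lower. More genes were then tested, and adjusted p values of genes already tested also changed, for Ins2 from 4.67e-04 to 2.21e-76 in edgeR. Ins1 to Ins2 was 0.427 per kb of exon against 0.345 in counts; the alternative's own construction, the annotated exon length, sets this change. Left-out libraries moved the mean Sst to Gcg ratio between 0.135 and 1.13, Gcg to Ins2 between 0.0910 and 0.143, Ppy to Pyy between 1.05 and 2.50 and Ins1 to Ins2 between 0.339 and 0.357. Depth limits the fat values of Iapp and Ttr, which rest on 1 read each, and genes with few islet reads such as Irx1 and Irx2.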
